A study of Rattus norvegicus with 59 samples.

Results

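The amino acid and neurotransmitter transporters studied here are the members of the solute carrier families Slc1, Slc3, Slc6, Slc7, Slc36, Slc38 and Slc43. They were taken by name from the deposited table, as every entry whose symbol begins with one of these family names followed by "a" and a digit. The rule used no measured value and gave 62 entries under 59 symbols, of 18331 entries under 17029 symbols in all. Slc7a2, Slc3a2 and Slc1a2 have a pair of entries each, one per RefSeq transcript. Slc7a6os fits the rule by its name only, since it is the gene on the opposite strand of Slc7a6 and not a transporter, and it was kept and counted. It had means of 9.49, 9.78 and 10.3 FPKM in NG, HG and HG + drugs and passed in no comparison, and as the counting is not stated to use strand, reads from it and from an overlapping Slc7a6 cannot be told apart.

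RNA was sequenced from INS-1E cells, a clonal rat insulinoma line used as a β-cell model, so all groups share this line. Glucose was 11.1 mM for the 20 NG libraries and 20 mM for the 20 HG libraries, over 72 h of culture each. The 19 HG + drugs libraries came from cells in 20 mM glucose for 72 h to which metformin (250 μM), sodium salicylate (250 μM) and exendin-4 (50 nM) were added together after the first 24 h. HG against NG asks what high glucose changes, and HG + drugs against HG asks what the drugs change in its presence. As the drugs were given only together and only in HG, their separate effects cannot be told apart.

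These carriers move amino acids, taurine, creatine and transmitters across the plasma membrane or out of lysosomes, mostly driven by the sodium gradient or by exchange of another amino acid. In β-cells, glutamine, leucine, alanine and glutamate entering through them can feed mitochondrial metabolism, arginine depolarises the membrane by its charge, and leucine and arginine signal to the growth kinase mTORC1. Several light chains of the Slc7 family reach the plasma membrane only when bound to a heavy chain of the Slc3 family. Some carriers are known targets of the stress factor ATF4, which binds the amino acid response element, and of MYC, which binds the E-box.

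Promoter windows from RefSeq (build GRCr8, not the rn5 build of the files) were matched for 45 of the 59 symbols and gave 49 windows. Of each window, the 250 bases before the start were searched on both strands. Slc38a3 and Slc7a2 were among the symbols without a window, so their promoters were not searched. The amino acid response element was searched as TGATGNAA and was in 3 of the 49 windows (Slc7a1, Slc38a1 and Slc1a4), against 3.4% of all 33469 windows. The E-box CACGTG was in 7 windows, against 5.59% of all, and the cyclic AMP response element TGACGTCA was in 1 (Slc38a6), against 1.59%. Besides Slc7a5, the E-box was in Slc1a4, Slc36a1 and Slc38a7, which passed in no comparison of the main fit below, and in Slc7a14, which fell with HG. It was also in Slc1a6 and Slc43a1, which were below 0.1 FPKM. None of the motifs contains another. The stretches around the match are shown for Slc7a5, the only tested member to fall with drugs, for Slc7a1, which rose with HG, and for Slc38a1, which rose with drugs. Capitals mark the E-box in the first and the amino acid response element in the others, and a match is a description of the letters, not of binding.
Slc7a5 (chr19:66872556-66872621, minus strand): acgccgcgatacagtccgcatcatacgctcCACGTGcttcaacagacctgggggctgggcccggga
Slc7a1 (chr12:11664428-11664487, plus strand): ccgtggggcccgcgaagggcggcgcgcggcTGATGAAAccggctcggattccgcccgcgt
Slc38a1 (chr7:129681506-129681573, minus strand): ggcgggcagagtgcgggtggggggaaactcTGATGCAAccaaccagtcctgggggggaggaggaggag

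The values are FPKM, fragments scaled by transcript length and by the mapped total of the library, which allow levels of different genes to be compared per length. The depth was read from the spacing of the low values as 6.90 to 10.35 M reads per library, with group medians of 8.62 M in NG, 8.72 M in HG and 8.845 M with drugs. Of 15 β-cell markers looked for, 13 were found by symbol, all with a mean of at least 1 FPKM, and Mafa and G6pc2 were not found. The summed level of the 13, mostly Ins1 and Ins2, had a median of 95137 FPKM in NG, 67042 in HG and 79140 with drugs. No immune marker reached 1 FPKM, while markers of other cell types that did included Gcg, Ghrl, Kdr, Pdgfra and 6 of 8 neuronal and glial markers. The summed level of the other endocrine markers, nearly all Gcg, had a median of 920 FPKM in NG (384 to 1711), 1141 in HG (437 to 1746) and 1126 in HG + drugs (438 to 1842). The summed neuronal and glial markers had medians of 158, 180 and 166 FPKM in the same order, and the part of these marker changes in the results was not tested. In bulk RNA, fewer cells that express a carrier and less of its RNA per cell cannot be told apart.

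At the level of the transcriptome the carriers are modest. Together they held 0.128% of all FPKM, and their summed level was 772 ± 62.2 FPKM (SD, n = 20) in NG, 754 ± 35.2 (n = 20) in HG and 772 ± 44.2 (n = 19) with drugs. Of the 62 entries, 34 (31 symbols) averaged at least 1 FPKM across the 59 libraries and were tested, 20 of them with at least 10 FPKM. The 5 highest held 46.5% of the summed level. They were both Slc7a2 entries, which encode the cationic carrier CAT2, Slc6a6, the taurine transporter, one entry of the heavy chain Slc3a2, and Slc7a5, the large neutral amino acid exchanger LAT1. The other 28 entries were below 1 FPKM, and 21 of these were below 0.1 FPKM.

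**Figure D1:**
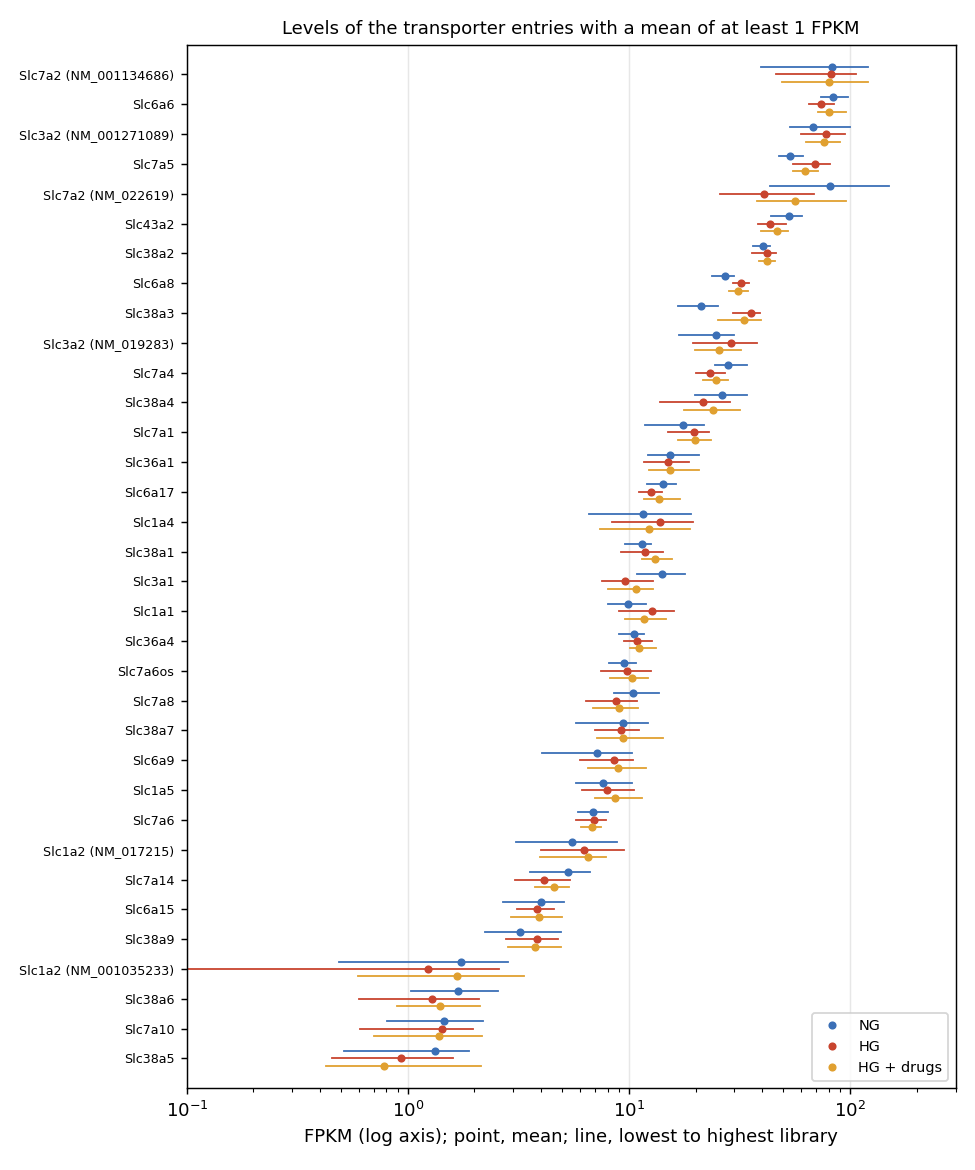
FPKM on a log axis for the 34 tested transporter entries in NG, HG and HG + drugs, with the mean as a point and the lowest to the highest library as a line. Levels run from about 80 FPKM for Slc7a2 and Slc6a6 to about 1 FPKM for Slc38a5, and the line of 1 Slc1a2 entry in HG leaves the axis at the left because 1 HG library was near 0.

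With HG, 10 of the 34 tested entries rose and 12 fell compared to NG (adjusted p under 0.05, limma on log2(FPKM + 1) over 10660 transcripts). Over all tested transcripts 18.2% rose, 22.0% fell and 40.1% changed in either direction, against 64.7% of the members. The median log2 change of the members was 0.01 (all transcripts -0.02), and their median absolute change was 0.21 (all transcripts 0.086). Drugs raised 4 and lowered 1 of the 34 compared to HG, where 4.17% of all transcripts rose, 4.48% fell and 8.66% changed, against 14.7% of the members. The median absolute change of the members with drugs was 0.082, and that of all transcripts 0.048. The log2 changes are on the log2(FPKM + 1) scale and so are understated where levels are low, while values given as times are ratios of the mean FPKM.

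**Figure D2:**
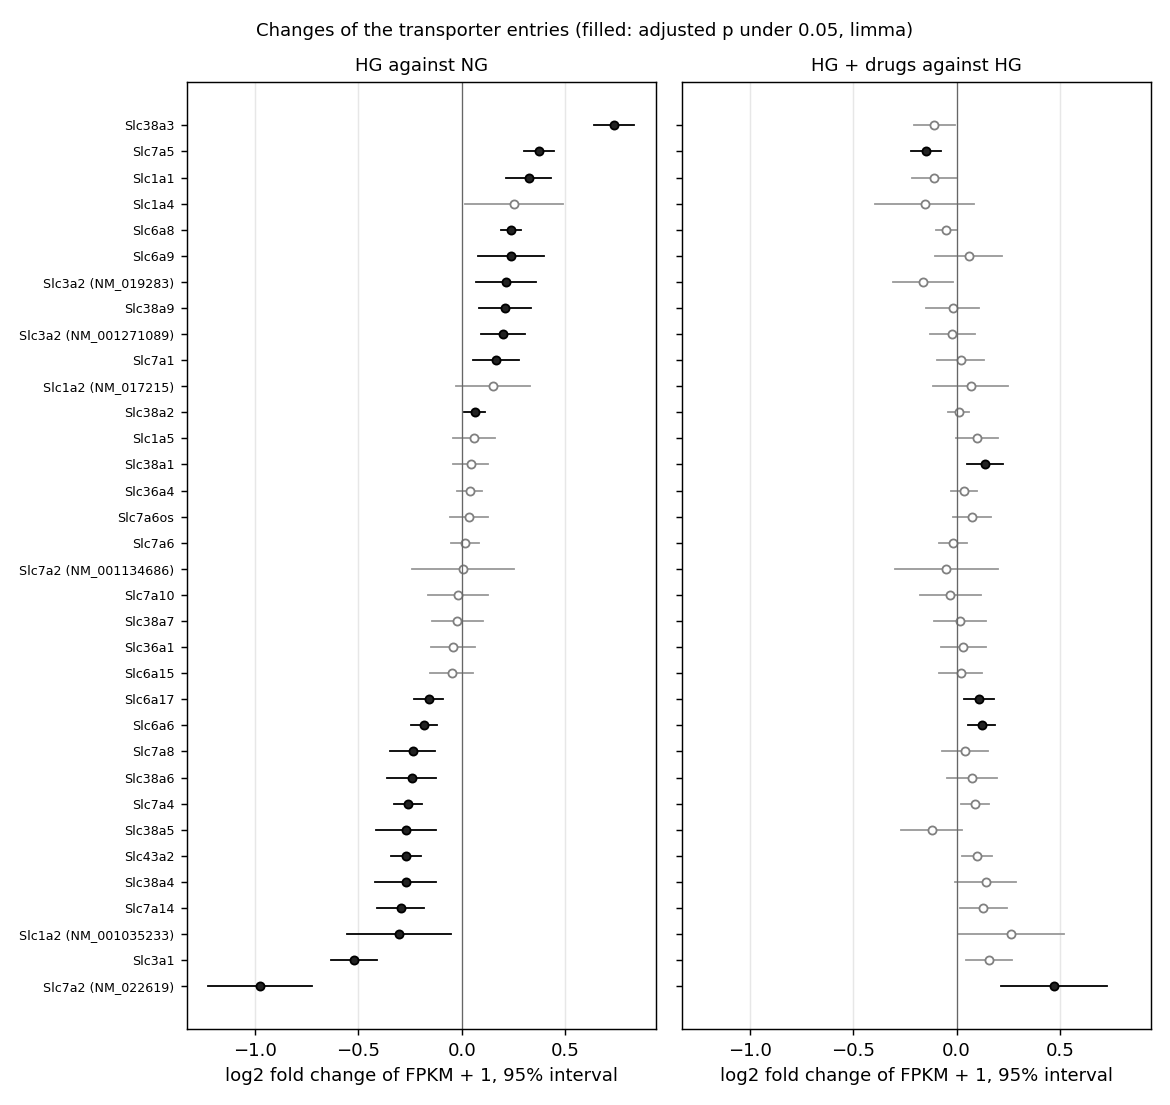
Log2 fold change of FPKM + 1 with its 95% interval for each tested entry, HG against NG on the left and HG + drugs against HG on the right, with filled points where the adjusted p from limma is under 0.05. Slc38a3 stands at 0.74 and the Slc7a2 entry NM_022619 at -0.97 with HG, and 5 points are filled on the drug side.

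Of the heteromeric exchangers, Slc7a5 was the most abundant light chain. It encodes LAT1, which brings in leucine and other large neutral amino acids in exchange for glutamine, and had 47.7 to 61.0 FPKM in NG (median 53.1), 55.0 to 81.2 in HG (median 70.1) and 55.3 to 71.5 in HG + drugs (median 63.1). HG libraries lay above every NG library in 19 of 20, and no HG + drugs library lay outside the HG range. The mean rose 1.30 times with HG, from 53.4 ± 4.37 (SD, n = 20) to 69.5 ± 5.79 (SD, n = 20), a log2 change of 0.37 (SE 0.036, adjusted p = 1.8e-13). It fell by 0.15 with drugs (SE 0.036, adjusted p = 0.0049), to 62.6 ± 4.57 (SD, n = 19). The HG library of number 13 had the lowest Slc7a5 of its group (55.0 FPKM), and its HG + drugs counterpart had 65.3 FPKM, above its group mean. Leaving out both therefore enlarges the fall, to 0.17 (adjusted p = 5e-04).

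Slc3a2, the heavy chain 4F2hc (CD98) that carries Slc7a5 and its relatives to the membrane, has an entry for each of its transcripts. NM_001271089 had 53.7 to 100.2 FPKM in NG (median 64.2), 60.2 to 94.8 in HG (median 77.6) and 63.5 to 90.5 in HG + drugs (median 76.2). Its mean rose from 67.7 ± 10.7 (SD, n = 20) to 77.5 ± 8.82 (SD, n = 20) with HG (log2 fold change 0.20, adjusted p = 0.0019), within overlapping ranges. NM_019283 rose from 24.6 ± 3.78 to 28.9 ± 5.66 FPKM (log2 fold change 0.21, adjusted p = 0.014) and had 25.5 ± 3.48 with drugs (log2 fold change against HG -0.16, adjusted p = 0.17). Summed over both entries, between which shared reads are divided, Slc3a2 had 92.4 FPKM in NG, 106.4 in HG and 101.8 with drugs, a rise of 0.21 with HG (adjusted p = 5.7e-05).

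The other partners of Slc3a2 were lower in level. Slc7a8, the light chain LAT2 for neutral amino acids, fell from 10.5 ± 1.42 FPKM to 8.71 ± 1.19 with HG (log2 fold change -0.24, adjusted p = 3.3e-04), and 9 of 20 HG libraries lay below every NG library. Slc7a6, an exchanger of cationic for neutral amino acids, had means of 6.85, 6.93 and 6.82 FPKM in NG, HG and HG + drugs, with a difference of 0.02 between HG and NG (95% interval -0.05 to 0.08). Slc7a10, the small neutral exchanger Asc-1, had 1.46, 1.43 and 1.39 FPKM, and its difference between HG and NG was -0.02 (95% interval -0.16 to 0.13). Slc7a7, another cationic exchanger, stayed below the filter with 0.613, 0.686 and 0.668 FPKM.

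Slc7a11, the cystine and glutamate exchanger xCT that supplies cysteine for glutathione, was below 1 FPKM and outside the main test. It had 0.0743 to 0.350 FPKM in NG (median 0.223), 0.264 to 0.623 in HG (median 0.395) and 0.189 to 0.790 in HG + drugs (median 0.342). HG libraries lay above every NG library in 13 of 20. At its length of 8894 bases the means of 0.219, 0.417 and 0.366 FPKM are about 16.4, 31.3 and 27.5 reads. In the fit without the filter it rose with HG by 0.22 (SE 0.035, adjusted p = 9.4e-07). With a pseudocount of 0.1 as well, a setting added after its values were seen, it rose by 0.71 (adjusted p = 3.4e-07). Of the 24 members below 1 FPKM that were above 0 in any library, the fit without the filter called 2 with HG, where 28.9% of all 15557 transcripts were called. The other was Slc6a5, the glycine transporter GLYT2, at 0.205 FPKM in NG and 0.280 in HG (log2 fold change 0.09, adjusted p = 0.031).

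Slc3a1, the other heavy chain (rBAT), which carries cystine and cationic amino acids with the light chain Slc7a9 in kidney, went the opposite way to Slc3a2. It had 10.9 to 17.9 FPKM in NG (median 13.7), 7.56 to 12.9 in HG (median 9.47) and 8.02 to 12.8 in HG + drugs (median 11.1). HG libraries lay below every NG library in 18 of 20, and with drugs this was so in 8 of 19. The mean fell from 14.2 ± 2.04 (SD, n = 20) to 9.55 ± 1.16 (SD, n = 20), a log2 change of -0.52 (SE 0.056, adjusted p = 7.2e-12). With drugs it was 10.8 ± 1.47 (SD, n = 19), which differed from HG by 0.16 (adjusted p = 0.070). Of the light chains known to pair with it, Slc7a9 was above 0 in 5 of 59 libraries and Slc7a13 in none.

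**Figure D3:**
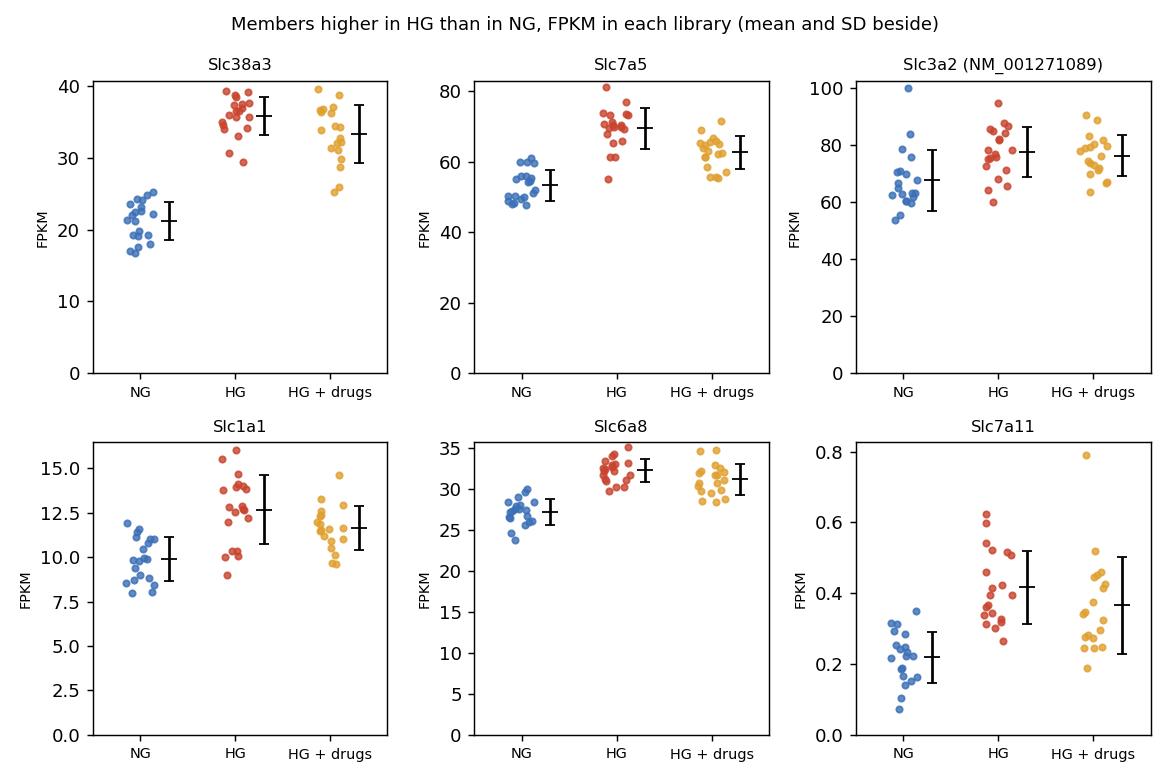
FPKM of 6 transporter entries in each library of NG, HG and HG + drugs, with the mean and SD beside the points. Slc38a3 in HG (29.4 to 39.3) does not overlap NG (16.8 to 25.3), while Slc3a2 overlaps widely and Slc7a11 stays below 1 FPKM.

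Among the carriers of cationic amino acids, the fall with the highest fold was in a single transcript of Slc7a2, the carrier CAT2 that takes up arginine, lysine and ornithine. NM_022619 had 43.2 to 150.1 FPKM in NG (median 75.8), 25.8 to 68.8 in HG (median 41.2) and 38.0 to 95.5 in HG + drugs (median 52.5). HG libraries lay below every NG library in 12 of 20, and the ranges of HG and HG + drugs overlapped widely. The mean was 81.2 ± 25.2 (SD, n = 20) in NG, 40.7 ± 12.0 (SD, n = 20) in HG and 56.4 ± 15.7 (SD, n = 19) with drugs, so HG had 0.502 times the NG level. The log2 fold change was -0.97 with HG (SE 0.13, adjusted p = 3.6e-09) and 0.47 with drugs against HG (SE 0.13, adjusted p = 0.011).

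The other Slc7a2 entry, NM_001134686, is 2500 bases long against 2497 and had 83.0 ± 23.2 FPKM (SD, n = 20) in NG, 81.9 ± 16.6 (SD, n = 20) in HG and 80.8 ± 23.7 (SD, n = 19) with drugs. Its difference between HG and NG was 0.01, with a 95% interval of -0.24 to 0.25. As the authors' software divides the reads that these transcripts share, their values are uncertain, and the sources used here do not say which entry encodes which CAT2 isoform. Summed over both entries, Slc7a2 had 164 ± 40.1 FPKM in NG, 123 ± 23.1 in HG and 137 ± 29.6 with drugs. The sum fell by 0.40 with HG (SE 0.099, adjusted p = 7.8e-04), while its difference with drugs was 0.16 against HG (adjusted p = 0.38) and -0.24 against NG (adjusted p = 0.059).

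**Figure D4:**
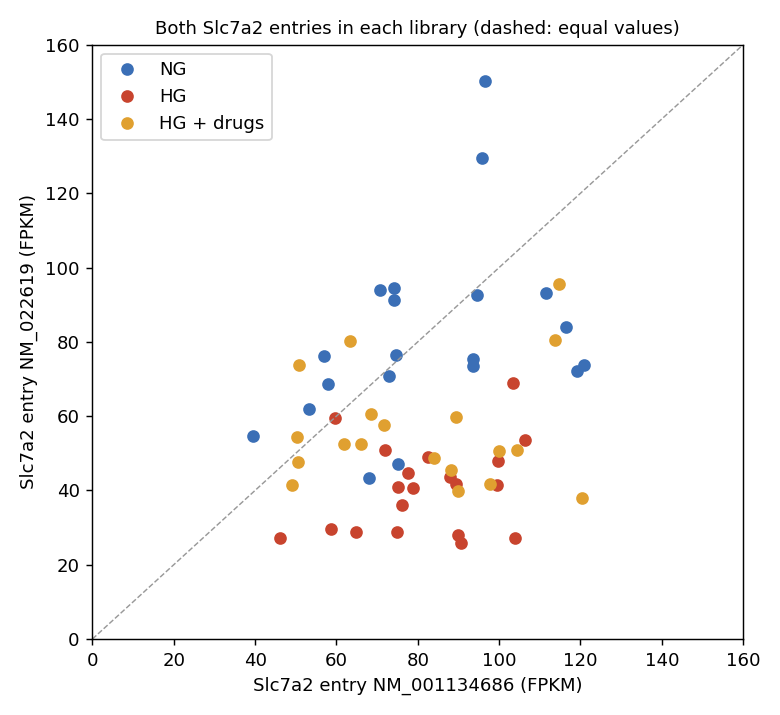
FPKM of both Slc7a2 entries in each library, NM_001134686 on the horizontal axis and NM_022619 on the vertical axis, with equal values on the dashed line. The groups spread over the same horizontal range, while NM_022619 is lower in HG (25.8 to 68.8) than in most NG libraries (43.2 to 150.1), with HG + drugs between.

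Slc7a1, the widely expressed arginine carrier CAT1 whose promoter stretch is shown above, rose with HG from 17.5 ± 2.88 FPKM to 19.6 ± 2.32 (log2 fold change 0.17, adjusted p = 0.015) and had 19.8 ± 1.94 with drugs. Its ranges overlapped in all groups, and 4 of 20 HG libraries lay above NG. Slc7a4, a relative of these carriers whose own transport is not settled, had 24.4 to 34.2 FPKM in NG (median 27.8) and 20.2 to 27.3 in HG (median 23.4). HG libraries lay below every NG library in 17 of 20, with a log2 change of -0.26 (SE 0.033, adjusted p = 2.2e-09). Slc7a14, described as a lysosomal member of this branch, fell from 5.30 ± 0.912 to 4.12 ± 0.609 FPKM (log2 fold change -0.29, adjusted p = 2.1e-05). Slc7a3, the carrier CAT3, had a mean of 0.039 FPKM.

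The sodium-coupled neutral amino acid transporters of the Slc38 family had 8 tested members, of which 3 rose and 3 fell with HG. Over all tested transcripts 18.2% rose and 22.0% fell. Slc38a3, the system N transporter SNAT3 that moves glutamine and histidine in either direction across the membrane, had the largest rise among the tested members. It had 16.8 to 25.3 FPKM in NG (median 21.6), 29.4 to 39.3 in HG (median 36.2) and 25.2 to 39.5 in HG + drugs (median 33.8). Every HG library lay above every NG library, which held for no other member, while groups separated upward in 1.26% of all transcripts tested and in either direction in 1.80%. The mean was 1.69 times higher in HG, at 35.8 ± 2.64 (SD, n = 20) against 21.2 ± 2.67 (SD, n = 20), a log2 change of 0.74 (SE 0.049, adjusted p = 5.6e-20). With drugs it was 33.3 ± 4.00 (SD, n = 19), a difference from HG of -0.11 (adjusted p = 0.18), and 18 of 19 libraries lay above every NG library.

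Slc38a5, the other system N member (SNAT5), was near the filter and fell with HG, from 1.33 ± 0.342 FPKM (SD, n = 20) to 0.933 ± 0.317 (SD, n = 20), a log2 change of -0.27 (adjusted p = 0.0022). With drugs it had 0.783 ± 0.362 (SD, n = 19), with 1 library at 2.13 and the median at 0.689. Its mean over all libraries was 1.02 FPKM, and only its NG mean was above 1 FPKM. Slc38a5 thus passed the filter through NG, the group where it was high, and its counted falls against NG are description only. Without that HG + drugs library, number 4, its mean over all libraries is below 1 FPKM and it is not tested. Slc38a4, the carrier SNAT4 known from liver, had 20.0 to 34.2 FPKM in NG (median 26.7), 13.8 to 28.6 in HG (median 21.8) and 17.7 to 31.8 in HG + drugs (median 24.3). It fell with HG by 0.27 (SE 0.073, adjusted p = 0.0020), with 6 of 20 HG libraries below NG. Slc38a6, a less studied member, fell from 1.68 to 1.28 FPKM (log2 fold change -0.24, adjusted p = 7.7e-04).

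Slc38a1 and Slc38a2, the system A carriers SNAT1 and SNAT2 that take up glutamine and alanine with sodium, gave small differences with HG. Slc38a1 had 9.62 to 12.6 FPKM in NG (median 11.6), 9.23 to 14.2 in HG (median 11.8) and 11.5 to 15.7 in HG + drugs (median 13.1). It differed between HG and NG by 0.04 (95% interval -0.04 to 0.13) and rose with drugs by 0.14 compared to HG (SE 0.043, adjusted p = 0.035), with 3 of 19 libraries above HG. Slc38a2 had means of 40.2 ± 2.08, 42.0 ± 2.71 and 42.3 ± 1.94 FPKM in NG, HG and HG + drugs, and its rise of 0.06 with HG was near the threshold (adjusted p = 0.047). Of the lysosomal members, Slc38a9, an arginine sensor of mTORC1, rose from 3.20 ± 0.731 to 3.82 ± 0.544 FPKM (log2 fold change 0.21, adjusted p = 0.0057). Slc38a7, which exports glutamine from lysosomes, had 9.42, 9.19 and 9.37 FPKM and a difference of -0.02 between HG and NG (95% interval -0.15 to 0.10).

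In the Slc1 family of glutamate and neutral amino acid carriers, Slc1a1 (EAAT3), a high-affinity glutamate and cysteine transporter, had 8.01 to 11.9 FPKM in NG (median 9.86), 9.02 to 16.1 in HG (median 12.8) and 9.60 to 14.6 in HG + drugs (median 11.6). HG libraries lay above every NG library in 15 of 20. The rise was 1.28 times in the mean, a log2 change of 0.32 (SE 0.054, adjusted p = 1.7e-06), and the difference with drugs against HG was -0.11 (adjusted p = 0.25). Slc1a5 (ASCT2), a glutamine exchanger, had 7.64 ± 1.05, 7.99 ± 0.950 and 8.62 ± 1.09 FPKM in NG, HG and HG + drugs. It passed the test only between HG + drugs and NG (log2 fold change 0.16, adjusted p = 0.017). Slc1a4 (ASCT1), an alanine, serine and cysteine exchanger, varied widely, from 6.62 to 19.1 FPKM in NG and from 8.35 to 19.6 in HG, and its difference of 0.25 did not pass (adjusted p = 0.081).

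Slc1a2 (GLT-1), the main glutamate transporter of astrocytes, has a pair of entries at low level. NM_017215 had 5.54, 6.27 and 6.55 FPKM in NG, HG and HG + drugs, with a difference of 0.15 between HG and NG (adjusted p = 0.18). NM_001035233 had 1.74, 1.24 and 1.67 FPKM and a log2 change of -0.30 with HG (adjusted p = 0.048), and 1 HG library was near 0. Summed over both, the change with HG was 0.03 (adjusted p = 0.79), so the call for NM_001035233 did not hold for the summed level of the gene.

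The Slc6 family, which includes the transporters of classical transmitters, had 5 tested members. With HG, 2 of them rose and 2 fell, where 18.2% of all tested transcripts rose and 22.0% fell. Slc6a6, the taurine and β-alanine transporter, had 74.1 to 98.4 FPKM in NG (median 83.1), 65.4 to 84.6 in HG (median 72.7) and 71.3 to 96.0 in HG + drugs (median 79.8). HG libraries lay below every NG library in 11 of 20, and 2 of 19 libraries with drugs lay above HG. It fell with HG by 0.18 (SE 0.032, adjusted p = 3.9e-06) and rose with drugs by 0.12 compared to HG (SE 0.033, adjusted p = 0.0099). Slc6a17, a carrier of neutral amino acids in synaptic vesicles, had 14.2 ± 1.00 FPKM (SD, n = 20) in NG, 12.6 ± 0.941 (SD, n = 20) in HG and 13.7 ± 1.38 (SD, n = 19) with drugs. Its fall with HG was 0.16 (adjusted p = 1.8e-04), and its rise with drugs of 0.11 was near the threshold (adjusted p = 0.045).

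Slc6a8, the creatine transporter, had 23.8 to 30.0 FPKM in NG (median 27.3), 29.7 to 35.1 in HG (median 32.3) and 28.4 to 34.7 in HG + drugs (median 31.0). HG libraries lay above every NG library in 19 of 20 and those with drugs in 13 of 19. The log2 fold change with HG was 0.24 (SE 0.025, adjusted p = 3.0e-12). Slc6a9 (GLYT1), which takes up glycine, rose with HG from 7.18 ± 1.75 to 8.52 ± 1.40 FPKM (log2 fold change 0.24, adjusted p = 0.014) and had 8.91 ± 1.48 with drugs. Slc6a15, a carrier of branched-chain amino acids and proline, had 4.02, 3.84 and 3.91 FPKM (HG against NG -0.05, 95% interval -0.15 to 0.05).

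The remaining members of the transmitter branch were scarce. Slc6a4, the serotonin transporter, had 0.116, 0.133 and 0.130 FPKM in NG, HG and HG + drugs. The dopamine transporter Slc6a3 was above 0 in 4 of 59 libraries and the noradrenaline transporter Slc6a2 in 1. The entries listed at 0 in every library were Slc6a18, Slc7a13, Slc1a6 and Slc6a14.

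Slc43a2 (LAT4), which lets large neutral amino acids such as leucine pass without sodium or exchange, was the abundant member of its family. It had 44.0 to 60.8 FPKM in NG (median 53.7), 38.3 to 51.2 in HG (median 43.4) and 39.4 to 52.6 in HG + drugs (median 46.8). HG libraries lay below every NG library in 11 of 20, and the log2 fold change was -0.27 (SE 0.036, adjusted p = 7.9e-09). With drugs it differed from HG by 0.10 (adjusted p = 0.083). Its relatives Slc43a1 and Slc43a3 had means of 0.010 and 0.068 FPKM. Of the proton-coupled carriers, Slc36a1, which exports small amino acids from lysosomes, had 15.4, 15.0 and 15.3 FPKM and Slc36a4 had 10.5, 10.8 and 11.1. Neither Slc36a1 nor Slc36a4 passed in any comparison of the main fit. Their 95% intervals for HG against NG were -0.15 to 0.06 and -0.02 to 0.10.

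**Figure D5:**
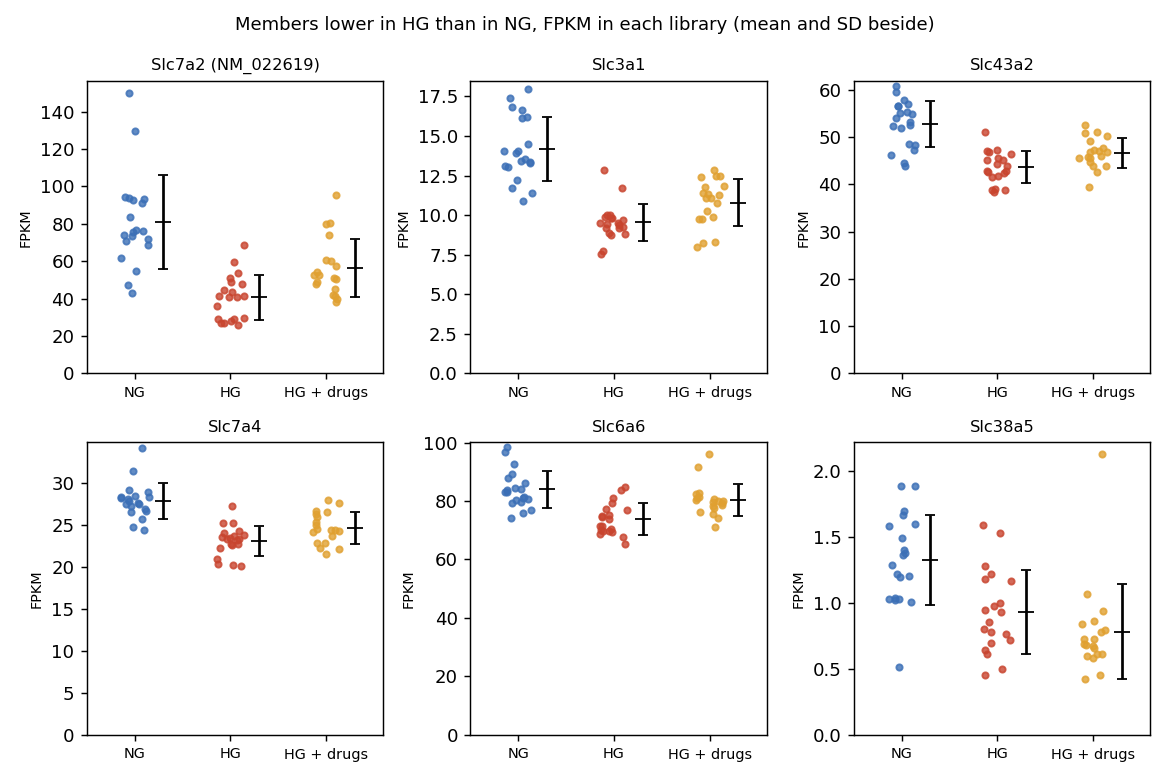
FPKM of 6 transporter entries in each library of NG, HG and HG + drugs, with the mean and SD beside the points. The HG points sit below most NG points for Slc3a1, Slc7a4 and Slc43a2, while Slc38a5 stays near 1 FPKM with 1 HG + drugs library at 2.13.

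By family, with HG, 1 of 5 tested Slc1 entries rose and 1 fell, and 2 of 3 Slc3 entries rose and 1 fell. Of 10 Slc7 entries, Slc7a6os included, 2 rose and 4 fell, and neither Slc36 entry passed the test. Over all tested transcripts 18.2% rose, 22.0% fell and 40.1% changed in either direction. With so few entries per family, these counts are description only. The sequencing ran in 4 batches of 15 samples, and which libraries formed them is not given in the sources used here. In sets of 15 consecutive library numbers, 20 of the 22 changes with HG kept their sign in all 4 sets and the other 2 (Slc38a2 and Slc3a2 NM_019283) in 3. The sets are parts of the libraries that gave the calls, so their signs are not separate support. The change of Slc38a3 was 0.68, 0.82, 0.69 and 0.77 in these sets, and that of Slc7a5 was 0.37, 0.41, 0.36 and 0.37. Other changes were less even, with 0.06, 0.62, -0.03 and 0.20 for Slc3a2 NM_019283 and -0.22, -0.14, -0.27 and -0.55 for Slc7a14. The rise of Slc3a2 NM_019283 thus lay mostly in 1 set.

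In the main fit, drugs changed 5 entries compared to HG. Slc7a5 fell, and Slc7a2 NM_022619, Slc6a6, Slc6a17 and Slc38a1 rose, with the values given above. With a replicate block in limma, Slc43a2, Slc7a4, Slc3a1 and Slc7a14 also rose (adjusted p = 0.001, 0.013, 0.011 and 0.043). The block took all transcripts raised by drugs from 445 to 1015. Each of the 5 called in the main fit had the same sign in all 4 sets of library numbers. So did entries not called there, Slc43a2, Slc7a4 and Slc3a1 among them, so the signs are not separate support. In no member did the HG and HG + drugs groups separate, as in 0% of all transcripts tested. With both libraries of number 13 left out (HG and HG + drugs), the changes were 0.51 for Slc7a2 NM_022619 (adjusted p = 0.0051), 0.13 for Slc6a6 (adjusted p = 0.0034), 0.12 for Slc6a17 (adjusted p = 0.022) and 0.15 for Slc38a1 (adjusted p = 0.021). All transcripts raised and lowered by drugs were then 639 and 616, against 445 and 478 in the main fit. More calls in this setting are thus not particular to the members. Leaving out single libraries ended the call of Slc6a17 in 24 of 59 fits and that of Slc38a1 in 11 of 59.

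HG + drugs was also compared to NG, with the same NG libraries as above and the same HG + drugs libraries, so the comparisons are not independent of each other. Of the 34 entries, 11 were higher and 8 lower than NG, where 12.7% of all transcripts were higher, 14.6% lower and 27.3% either, against 55.9% of the members. No member separated from NG with drugs, as 0.235% of all transcripts did (0.159% above NG and 0.0750% below). Slc38a3 was higher by 0.63 (SE 0.049, adjusted p = 3.5e-16), Slc7a5 by 0.23 (adjusted p = 1.3e-06), Slc6a8 by 0.19 (adjusted p = 1.7e-08), Slc1a1 by 0.22 (adjusted p = 0.0018) and Slc6a9 by 0.30 (adjusted p = 0.0040). Slc3a2 NM_001271089 (0.18), Slc38a9 (0.19), Slc7a1 (0.18), Slc38a1 (0.18), Slc1a5 (0.16) and Slc38a2 (0.07) were the other higher entries. Slc7a2 NM_022619 was lower by 0.50 (adjusted p = 0.0018), a call lost for the sum of both Slc7a2 entries (adjusted p = 0.059). Slc3a1 was lower by 0.36 (adjusted p = 6.1e-07). Slc38a5, which passed the filter through NG, was lower by 0.39 (adjusted p = 3.6e-05). The other lower entries were Slc7a8 (-0.20), Slc43a2 (-0.17), Slc7a4 (-0.17), Slc38a6 (-0.17) and Slc7a14 (-0.17). Slc6a6 differed from NG by -0.06 (adjusted p = 0.16), Slc6a17 by -0.05 (adjusted p = 0.29) and Slc38a4 by -0.13 (adjusted p = 0.19).

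The genes around the carriers were described from lists of the same pathways, to be read against the 18.2% of all transcripts that rose and 22.0% that fell with HG (40.1% either) and their median log2 change of -0.02. Entries were counted, and Aldh18a1, Nupr1 and Slc25a22 each have a pair of entries with equal values. Of 33 tested entries of the amino acid response, 11 rose and 4 fell with HG (median log2 change 0.11), both Aldh18a1 entries among the rises. With drugs compared to HG, 1 rose and 1 fell, where 4.17% of all transcripts rose and 4.48% fell. Asns, asparagine synthetase, rose with HG from 138 to 192 FPKM (log2 fold change 0.48, adjusted p = 7.8e-17) and fell by 0.17 with drugs (adjusted p = 0.0012), to 170 FPKM. Aldh18a1 and Psat1, which act in proline and serine synthesis, rose by 0.30 and 0.28, while Wars, a tRNA synthetase, fell by 0.26 and the cytokine gene Gdf15 fell by 0.56. Atf4 itself, chosen after its values were seen, had 175 FPKM in NG and 184 in HG (log2 fold change 0.07, adjusted p = 0.52). Of 27 entries of amino acid sensing by mTORC1, 1 rose and 7 fell with HG (median log2 change -0.056). The riser was Sesn1 (log2 fold change 0.36, adjusted p = 1.2e-09), a stress-induced inhibitor of mTORC1, which fell by 0.16 with drugs, and Mlst8, a subunit of mTORC1, fell by 0.19 with HG.

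Of 16 entries of glutamate, glutamine and GABA enzymes, 7 rose and 5 fell with HG (median log2 change 0.07). Glud1, glutamate dehydrogenase, fell from 100.3 to 78.7 FPKM (log2 fold change -0.35, adjusted p = 5.8e-16), and Glul, glutamine synthetase, rose from 74.6 to 85.1 FPKM (log2 fold change 0.19, adjusted p = 3.7e-05). Of 16 entries of branched-chain amino acid breakdown, 2 rose and 7 fell (median log2 change -0.069). Bckdk, the kinase that inhibits the branched-chain dehydrogenase, rose by 0.35 (adjusted p = 3.5e-16), and Ivd, which acts in leucine breakdown, fell by 0.35 with HG (adjusted p = 8.6e-12) and rose by 0.21 with drugs (adjusted p = 1.1e-04). Of 12 entries of cystine use and glutathione synthesis, 2 rose with HG, Gss by 0.23 and Gsr by 0.12 (median log2 change 0.0084), and Gclm rose with drugs by 0.19 (adjusted p = 0.039).

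Of 7 tested entries for monoamines, none rose and 4 fell with HG (median log2 change -0.21), where 22.0% of all transcripts fell, and 3 rose with drugs, where 4.17% of all rose. Maob, monoamine oxidase B, had 48.6, 30.8 and 37.0 FPKM in NG, HG and HG + drugs, a log2 change of -0.64 with HG (adjusted p = 2.5e-09) and 0.25 with drugs (adjusted p = 0.044). Ddc, which makes dopamine and serotonin, fell by 0.36 with HG. Of 4 vesicular transmitter transporters, Slc17a9 (nucleotides) and Slc17a7 (glutamate) fell with HG by 0.33 and 0.20 and rose with drugs by 0.24 and 0.27. Of 18 entries of glutamate, GABA and glycine receptors, 7 rose and 6 fell with HG (median log2 change -0.078). Gabrq fell from 6.76 to 3.39 FPKM (log2 fold change -0.83, adjusted p = 3.1e-16), and Gabra4 fell by 0.37 with HG and rose by 0.20 with drugs (adjusted p = 7.9e-04).

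Of 14 entries of amino acid carriers from other families, 3 rose and 3 fell with HG (median log2 change -0.060), against 40.1% of all transcripts called, and both Slc25a22 entries were among the rises. Slc16a10, a carrier of aromatic amino acids, had 14.1, 8.91 and 11.2 FPKM in NG, HG and HG + drugs, a log2 change of -0.61 with HG (adjusted p = 1.4e-11) and 0.31 with drugs (adjusted p = 0.0014). Slc25a15, the mitochondrial ornithine carrier, rose by 0.26 with HG (adjusted p = 1.3e-05). Of 17 entries of partners and regulators of plasma membrane transporters, 6 rose and 4 fell (median log2 change -0.014). Sgk1, a kinase that stimulates many carriers, fell from 6.09 to 3.53 FPKM (log2 fold change -0.65, adjusted p = 5.6e-09), and Tmem27 (collectrin), known as a partner of Slc6 carriers in kidney, rose from 47.4 to 54.0 FPKM (log2 fold change 0.19, adjusted p = 8.9e-04).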

How the data were processed

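Values were FPKM, which the authors estimated in Cufflinks for RefSeq transcripts of rat build rn5 after FastQC (version 1.0.0), adapter trimming and alignment in TopHat with Bowtie, and deposited as a table of 59 libraries. The replicates are described as independent experiments, and HG + drugs replicate 16 is not analysed here. FPKM depend on the total of each library, and reads shared by transcripts of a gene are divided by the software.

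Depth was derived from low FPKM (effective length taken as length less 202 bases), of which 85.3% of 72327 were whole reads within 0.05 reads. At a length of 1816 bases and median depth, 1 FPKM is 13.9 reads. On log2(FPKM + 1), limma 3.58.1 was run in R 4.3.3 (trend and robust options) on the 10660 transcripts that averaged 1 FPKM or more. All 3 groups shared a fit, with Benjamini-Hochberg adjustment over these transcripts at 0.05. The procedure was also run on simulated data, whose outcome is not reported here. Those libraries were drawn independently, without an effect shared by equal replicate numbers. Tables and figures were made in Python 3.11.15 with pandas 2.3.3, numpy 2.4.6 and matplotlib 3.10.9.

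The members and lists were chosen with earlier results of these data known. All members past the threshold, the 5 highest, and up to 4 genes per list and comparison were named. Alternatives were a pseudocount of 0.1, no filter, a minimum of 5 FPKM, quantile normalization, median-ratio scaling, sets of 15 library numbers as a term, a replicate block, complete replicate numbers, exclusion of number 13, single libraries left out, other limma options and FPKM summed per symbol. The fit without a filter at a pseudocount of 0.1 was added after the data were seen. Some single genes are not reported here.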

Additional observations from a re-analysis of the deposited data

How the results depend on the processing

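Of the counts of members raised or lowered, 3 moved by over 1.5 times. Members lowered in HG + drugs against NG were 5 of 27 tested with a minimum of 5 FPKM (8 in the main fit), since fewer entries were tested. Members raised by drugs against HG were 8 with a replicate block (4 in the main fit, the added ones being Slc43a2, Slc7a4, Slc3a1 and Slc7a14). Over the fits that left out single libraries they ranged from 2 to 5, with 2 when HG number 1 or 18 or HG + drugs number 2, 4, 15 or 20 was left out. The block ended no call of a member and added 4 outside the drug comparison, Slc1a4 with HG (adjusted p = 0.0016) and, in HG + drugs against NG, Slc6a6 (adjusted p = 0.014), Slc36a4 (adjusted p = 0.024) and Slc1a2 NM_017215 (adjusted p = 0.031). All transcripts raised and lowered by drugs against HG were then 1015 and 1081, against 445 and 478. Same-numbered libraries deviated together more than others, with a mean correlation of 0.139 over 58 pairs against -0.007 for other numbers. It was over 0.1 in 38 of the pairs, and the closest library shared the number in 27 of 59. The labels do not say whether equal numbers mark a shared experiment, and the study compared the groups as categories. The main fit has no replicate term, so its standard errors use no pairing.

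The fall of Slc1a2 NM_001035233 with HG reversed to 0.0275 when entries were summed per symbol, and its call was also lost with a pseudocount of 0.1, no filter, median-ratio scaling, quantile normalization, complete replicate numbers, without number 13 and in 32 of 59 fits that left out a library. The call of Slc38a2 with HG was lost without a filter (adjusted p = 0.056), with quantile normalization (adjusted p = 0.094) and in 24 of 59 such fits. The rise of Slc6a17 with drugs was lost without a filter (adjusted p = 0.059), with quantile normalization (adjusted p = 0.055) and with complete replicate numbers (adjusted p = 0.057). The call of Slc38a6 in HG + drugs against NG was lost without NG number 8 or HG + drugs number 2, 3, 15 or 20, and that of Slc38a2 without NG number 15 or HG + drugs number 8. The rise of Slc38a1 with drugs was lost without HG number 1, 2, 3, 9, 15 or 18 or HG + drugs number 2, 4, 9, 15 or 20. The cause of these losses was not tested. With entries summed per symbol, the calls of Slc7a2 NM_022619 were lost with drugs against HG (0.16, adjusted p = 0.38) and against NG (-0.24, adjusted p = 0.059).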
